A study of Persea americana and Macadamia integrifolia and Mangifera indica with 6 samples.

Results

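miR398 and miR408 are a pair of conserved plant miRNA families known for their response to copper, and the values below describe them in leaves of avocado (Persea americana, cultivar Hass), macadamia (cultivar HAES741) and mango (Kensington Pride). Members were all entries of the miRNA table whose name holds miR398 or miR408, with sequence variants and arms kept apart. The rule found 4 of 123 entries, 2 from Arabidopsis and 2 from rice, and these held 3 distinct sets of values out of 53 in the table. The rice osa-miR398a and the Arabidopsis ath-miR398a-3p entries were identical in all 6 libraries and were counted as 1 sequence, called miR398a here. The other members were osa-miR398b, which names no arm, and ath-miR408-3p. Whether each was the guide strand in these trees was not measured.

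For each species there was 1 small RNA library from juvenile trees (1 month old) and 1 from mature trees that had already flowered (10 years old for avocado and macadamia and 5 for mango). Both ages were sampled as the youngest fully expanded leaves, from the primary unbranched shoot of juvenile plants and from many positions on each mature tree. The methods name the cultivar of the seed sown, but not that of the mature avocado and macadamia trees. Juvenile leaves came from seedlings raised in a nursery (avocado) or a glasshouse (macadamia and mango), and mature leaves from field trees, which were grafted on Velvick rootstock in avocado and were true seedlings in mango. Age, growing place, leaf position, any genetic difference between seedlings and field trees and, in avocado, grafting therefore cannot be told apart. Leaves were pooled from several plants, the methods do not name the pool that was sequenced, and a table of miRNAs alone holds no marker with which to check the tissue.

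In Arabidopsis, the transcription factor SPL7 switches on miR398 and miR408 when copper is scarce. miR398 cleaves transcripts of the copper/zinc superoxide dismutases CSD1 and CSD2 and of their copper chaperone CCS, while miR408 cleaves transcripts of plantacyanin and of laccases, which are copper proteins of the cell wall and of electron transfer. Together they are regarded as sparing copper for plastocyanin, the copper protein of photosynthesis. In the same species miR398 is also lowered by oxidative stress. Copper supply, leaf copper and target transcripts of these genes were not among the data analysed here.

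Values are RPM, the reads per 1000000 reads of 20 to 24 nt in the library. All values of a library were whole multiples of 1 read, which gave depths between 1141472 (juvenile mango) and 7509125 reads (mature avocado). Exact 95% intervals in parentheses come from the recovered reads and cover counting error only. The table holds too few low values for a separate check of these reads, so the intervals depend on that recovery. A whole multiple of a depth would fit as well and would narrow them, while PCR copies, which are not independent molecules, would widen them. With 1 library per species and age there was no replicate error, and no test was made within a species.

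miR398 was detected in all 6 libraries, at similar RPM in the juvenile leaves and at very different RPM in the mature leaves. In juvenile leaves the family stood at 48.6 RPM in avocado (224 reads), 51.0 RPM in macadamia (368 reads) and 42.9 RPM in mango (49 reads). In mature leaves it stood at 4.79 RPM in avocado (36 reads), 108 RPM in macadamia (186 reads) and 69.1 RPM in mango (312 reads). The juvenile values of the family lay within counting error of each other, whereas the mature values were ordered macadamia, mango, avocado with intervals that did not overlap.

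Among juvenile libraries, the macadamia level was 1.05 times the avocado level (0.886 to 1.24). The mango level was 0.883 times the avocado level (0.634 to 1.21) and 0.842 times the macadamia level (0.612 to 1.14). Each of these intervals held 1, so a difference was not detectable at this depth. Among mature libraries, the macadamia level was 22.6 times the avocado level (15.7 to 33.2) and the mango level 14.4 times (10.2 to 21.0). Mature macadamia exceeded mature mango 1.57-fold (1.30 to 1.89). The likeness of the juvenile leaves depended on the scale. Of the reads of all listed miRNAs, miR398 took 0.0410% in juvenile avocado, 0.0676% in juvenile macadamia and 0.0553% in juvenile mango, and 0.00857%, 0.195% and 0.0415% in the mature libraries in the same order. Mature avocado was lowest and mature macadamia highest on both scales.

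**Figure D1:**
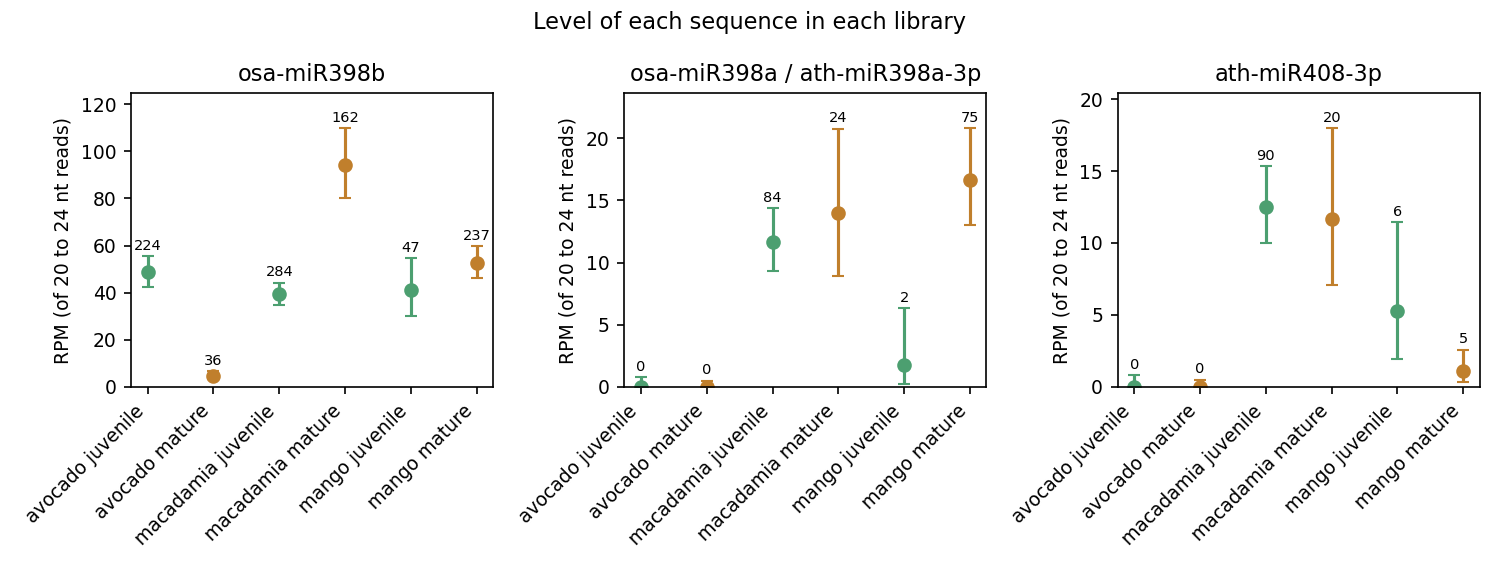
RPM of osa-miR398b, miR398a and ath-miR408-3p in each of the 6 libraries (each panel has its own linear axis; green, juvenile; brown, mature). Bars are exact 95% Poisson intervals and numbers are reads. osa-miR398b is low only in mature avocado among these libraries, with 36 reads, and both other sequences have 0 reads in both avocado libraries.

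The age difference of miR398 was opposite in avocado and macadamia. In avocado, miR398 was 10.1-fold lower in mature leaves (7.11 to 14.9). In macadamia it was 2.12-fold higher in mature leaves (1.77 to 2.54). In mango it was 1.61-fold higher in mature leaves (1.19 to 2.22), which is under the 2-fold used as a call. Its mango direction depended on the scale, since rescaling each library to its summed listed miRNAs turned the mango log2 ratio from 0.67 to -0.40, with the listed miRNAs taking 7.77% of reads in the juvenile and 16.6% in the mature mango library. Avocado and macadamia kept their directions under that scaling, at log2 ratios of -2.12 and 1.52.

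These differences were read against all families that reached 10 RPM at one age or the other. In avocado 8 of 15 families were at least 2-fold lower in mature leaves (53.3% of those tested), and miR398, 1 of the 8, had the 12th highest log2 ratio of the 15, at -3.10 against a median of -1.39. A lower level in mature avocado was thus the common direction there. In macadamia 2 of 18 families stood 2-fold or more above the juvenile level (11.1%) and 6 as far below it (33.3%). miR398 was 1 of those higher, with the second highest log2 ratio, at 1.07 against a median of -0.53. In mango 5 of 16 families stood 2-fold or more above the juvenile level (31.2%) and 6 as far below it (37.5%). miR398 was in neither group, with the 7th highest log2 ratio, at 0.67 against a median of -0.05. After each species was rescaled so that its median family had a log2 ratio of 0, the avocado and macadamia values of miR398 were -1.71 and 1.60, and 6 of 15 avocado families were higher and 4 lower, in place of 3 and 8, while macadamia had 4 higher and 5 lower.

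**Figure D2:**
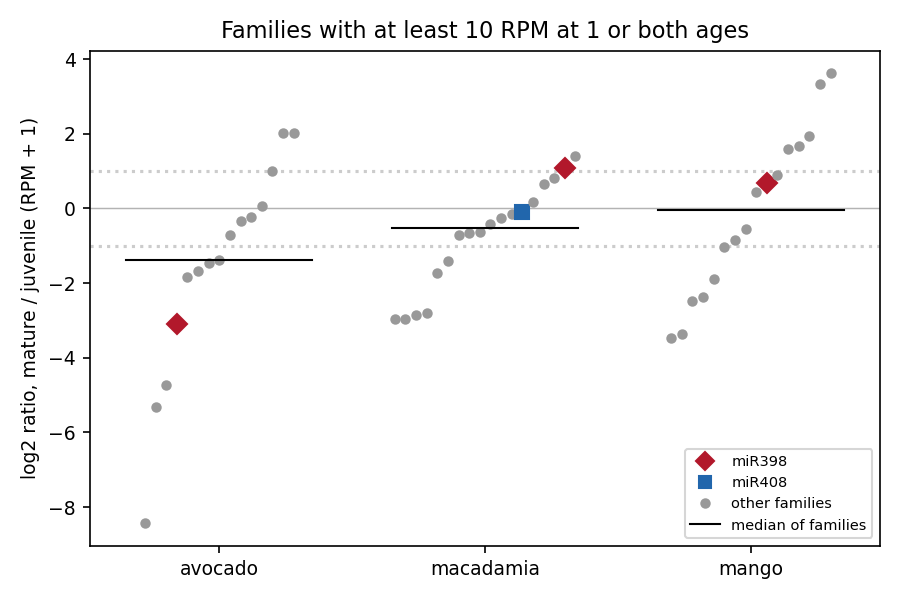
log2 ratio of mature over juvenile leaves on RPM + 1 for each family that reached 10 RPM in a species (points, ordered by value within a species; black line, median; dotted lines, 2-fold). miR398 lies at -3.10 in avocado, 1.07 in macadamia and 0.67 in mango, and miR408, past the filter in macadamia alone, at -0.09.

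An age effect shared by the 3 species was tested with limma on log2(RPM + 1) values in a model that blocked on species, and 13 families reached 10 RPM in each of them. The shared log2 fold change of miR398 was -0.45, with a standard error of 0.91 and a 95% interval from -2.31 to 1.41. It was not past the threshold (limma, adjusted p = 0.73), and miR398 was higher in 2 of 3 species. The test called 0 families higher (0%) and 2 lower (15.4%), or 0 higher and 3 lower at an unadjusted p under 0.05, and miR398 was in neither count. The sign of this value was not stable. Without avocado the shared log2 fold change was 0.87 (adjusted p = 0.54 from limma), with rescaling to the median family it was 0.21 (0.89), and over all settings the adjusted p ran from 0.54 to 0.89. The standard error is pooled over families and does not rest on the spread of miR398 itself.

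The osa-miR398b sequence made up most of the counted miR398 reads in every library. Reads of miR398 forms that differ from the 2 listed sequences would go uncounted. It was 1 of 30 distinct sequences above 0 in all 6 libraries, and its RPM were 48.6 in juvenile avocado, 4.79 in mature avocado, 39.4 in juvenile macadamia, 94.3 in mature macadamia, 41.2 in juvenile mango and 52.5 in mature mango. Leaving aside mature avocado, the highest and lowest of these differed 2.40-fold, and with it 19.7-fold. Among juvenile leaves it was 1.24-fold higher in avocado than in macadamia (1.03 to 1.48), unlike the family sum, whose interval held 1. With age it was 2.40-fold higher in mature macadamia (1.96 to 2.92). In mango it was 1.27-fold higher in mature leaves with an interval that held 1 (0.929 to 1.78), so a change of this sequence in mango was not detectable at this depth. In the same model over the 23 distinct sequences that reached 10 RPM in each species, the shared log2 fold change of osa-miR398b was -0.51, with a 95% interval from -2.30 to 1.29 (adjusted p = 0.82 from limma). There 0 sequences (0%) were called higher and 3 (13%) lower, or 0 and 6 at an unadjusted p under 0.05.

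The miR398a sequence was seen in macadamia and mango and had 0 reads in both avocado libraries. It had 84 reads in juvenile macadamia (11.6 RPM), 24 in mature macadamia (14.0 RPM), 2 in juvenile mango (1.75 RPM) and 75 in mature mango (16.6 RPM). The macadamia values did not differ beyond counting error, at 1.20 times the juvenile level in mature leaves (0.729 to 1.91). In mango the mature level was 9.48 times the juvenile level, with a wide interval because the juvenile library held 2 reads (2.53 to 79.7). Taken as 3 reads, the limit that a count of 0 allows was 0.651 RPM in the juvenile and 0.400 RPM in the mature avocado library, and the exact upper bounds were 0.801 and 0.491 RPM. In all, 9 of the 53 distinct sequences were at 0 in both avocado libraries, and miR398a and ath-miR408-3p were 2 of the 9.

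The make-up of the counted miR398 reads therefore differed between the juvenile and mature libraries of both species with both sequences, in opposite directions. miR398a formed 22.8% of miR398 reads in juvenile macadamia (18.6 to 27.5) and 12.9% in mature macadamia (8.45 to 18.6). In mango it formed 4.08% in juvenile leaves (0.498 to 14.0, on 2 of 49 reads) and 24.04% in mature leaves (19.4 to 29.2). As a ratio within a library, miR398a per osa-miR398b was 1.996-fold lower in mature macadamia (1.20 to 3.42) and 7.44-fold higher in mature mango (1.86 to 64.5). These ratios do not depend on how a library was scaled. In avocado 0 of 224 juvenile and 0 of 36 mature miR398 reads were miR398a, which allows shares of up to 1.34% and 8.33% by the same limit of 3 reads, or 1.63% and 9.74% as exact upper bounds.

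**Figure D3:**
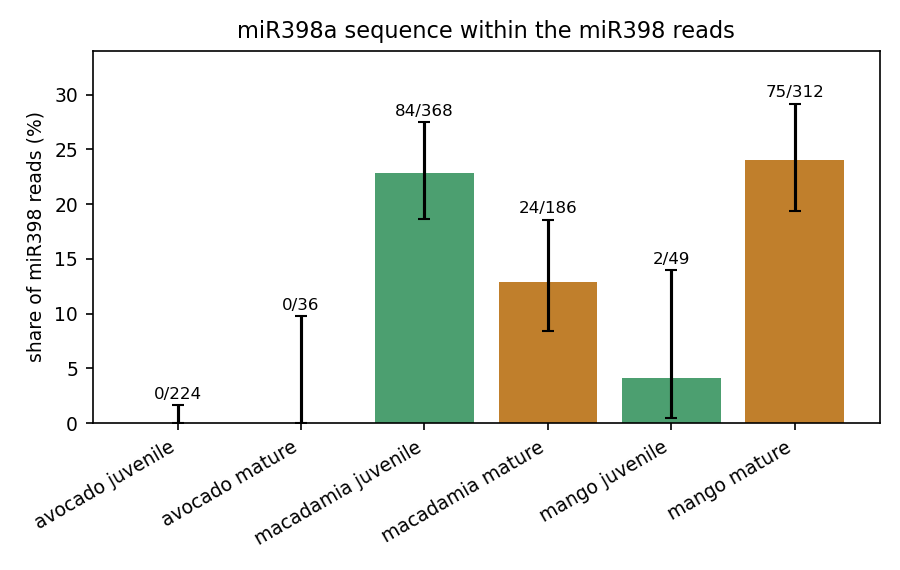
Share of the counted miR398 reads that belong to the miR398a sequence in each library, in percent (green for juvenile, brown for mature). Bars with exact Clopper-Pearson 95% intervals and the reads behind each share show 22.8% and 12.9% in juvenile and mature macadamia, 4.08% and 24.04% in mango, and 0 reads in avocado.

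By the listed sequences, miR408 was the scarcer family in every library. ath-miR408-3p had 0 reads in juvenile and mature avocado, 90 reads in juvenile macadamia (12.5 RPM), 20 in mature macadamia (11.6 RPM), 6 in juvenile mango (5.26 RPM) and 5 in mature mango (1.11 RPM). Macadamia held the highest levels at both ages, mango had lower ones and avocado had no reads of the listed sequence. The juvenile macadamia level was 2.37 times the juvenile mango level (1.05 to 6.64), and the mature macadamia level was 10.5 times the mature mango level (3.83 to 35.9). The limits for avocado are the same as for miR398a, which puts the listed sequence there below both macadamia libraries and the juvenile mango library. An avocado miR408 that differs from the reference would go uncounted, so the level of the family in avocado is not known. Of the 20 families, miR408 ranked between 16th and 20th by RPM across the 6 libraries and miR398 between 12th and 15th.

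With age, miR408 did not move in macadamia beyond counting error, at 1.07-fold lower in mature leaves (a ratio of mature to juvenile of 0.934, 0.545 to 1.53). In mango it was 4.75-fold lower in mature leaves (1.21 to 19.7), on 6 and 5 reads and below the 10 RPM filter at both ages. In avocado no ratio could be formed. miR408 entered no limma fit with a filter, since it stayed under 10 RPM in both avocado and mango. Without a filter, over 20 families, its shared log2 fold change was -0.55 (adjusted p = 0.81 from limma), with both avocado values at 0.

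Set against each other within a library, miR398 was more abundant relative to miR408 in mature than in juvenile leaves of macadamia and mango. In macadamia there were 4.09 miR398 reads per miR408 read in juvenile leaves (3.24 to 5.21) and 9.30 in mature leaves (5.85 to 15.6), 2.27-fold more (1.34 to 4.02). In mango there were 8.17 in juvenile leaves (3.49 to 23.3) and 62.4 in mature leaves (26.5 to 194), 7.64-fold more (1.85 to 32.6). The mango ratios rest on 6 juvenile and 5 mature miR408 reads, below the 10 RPM filter at both ages. The direction held for osa-miR398b alone, with 2.57-fold (1.498 to 4.57) and 6.05-fold (1.46 to 25.9) more per miR408 read. In macadamia, miR398a per miR408 read was 0.933 in juvenile and 1.20 in mature leaves, a difference within counting error. With the listed miR408 sequence set at 3 reads in place of 0, the ratio would be 74.7 in juvenile and 12.0 in mature avocado. These avocado values carry no counting error and are not lower bounds. Because both use the same 3 reads, they differ only through the miR398 reads and give no direction of the ratio with age.

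**Figure D4:**
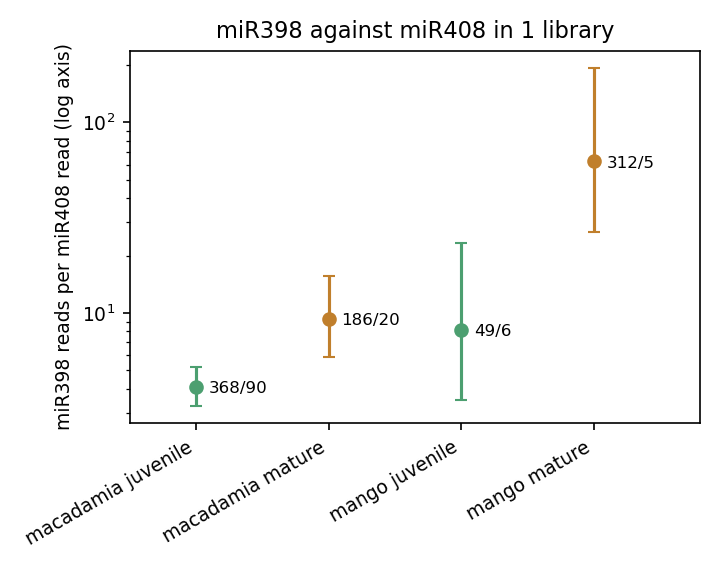
miR398 reads per miR408 read within each macadamia and mango library, on a log axis, with exact 95% intervals and the reads behind each ratio (green, juvenile; brown, mature). The ratio goes from 4.09 to 9.30 in macadamia and from 8.17 to 62.4 in mango. Avocado, with 0 miR408 reads, is left out.

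Of the 4 families known as copper miRNAs in Arabidopsis, miR397, miR398, miR408 and miR857, the values hold entries of 2. miR397 and miR857, which target laccases, were not analysed here. Another pair of families of mineral nutrition were set beside them. miR395, which targets ATP sulfurylases and a sulphate transporter, had 63951 reads in juvenile and 295 in mature avocado. It had 803 and 214 reads in macadamia, at 111 and 125 RPM, and 3 and 44 reads in mango, at 2.63 and 9.74 RPM. miR395 was thus 353-fold lower in mature avocado (315 to 397.6), where 8 of 15 families were at least 2-fold lower. It was 3.71-fold higher in mature mango (1.19 to 18.7), on 3 juvenile reads and below the 10 RPM filter at both ages. miR398 had the same directions in RPM. Its mango log2 ratio turned to -0.40 when libraries were rescaled to their summed listed miRNAs. In macadamia miR395 did not differ beyond counting error, at 1.12 times the juvenile level in mature leaves (0.958 to 1.30). miR399, which targets the phosphate regulator PHO2, was 2.82-fold higher in mature macadamia (1.87 to 4.22), the other family at least 2-fold higher there, and had 0 or 1 read in the avocado and mango libraries.

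The families whose levels were most like miR398 over the 6 libraries were miR168 (Pearson r = 0.79 on log2(RPM + 1)), miR159 (0.61) and miR408 (0.58). Those most like miR408 were miR168 (0.86), miR399 (0.80) and miR162 (0.76). The 6 points share species in pairs and were scaled by 1 total per library, so these values are descriptions only. Between the 2 miR398 sequences r was 0.62, and between miR398a and miR408, the members with 0 reads in avocado, it was 0.71.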

How the data were processed

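The deposited values are RPM computed by the authors, who trimmed adapters (Trim Galore), discarded ribosomal reads (BBduk), aligned the rest to miRBase mature sequences of Arabidopsis and rice (SCRAM), and normalized to reads of 20 to 24 nt. Tool versions were not given in the sources used here. Reads of tree miRNAs that differ from these references can go uncounted, so a count of 0 concerns the listed sequence alone. Columns were assigned to the 6 samples by their headings, and 0 value columns had no sample. Depth was the smallest number of reads that made every value whole within the rounding of 3 decimals. A family was the sum of its distinct sequences on the arm with the larger total plus those naming no arm. Ratios used RPM, and log2 ratios used RPM plus a pseudocount of 1. Reads were used for exact Poisson, Clopper-Pearson and conditional odds ratio intervals (95%). Families with at least 10 RPM were called at 2-fold. limma 3.58.1 in R 4.3.3 was run across all families or sequences that reached 10 RPM in each species, with Benjamini-Hochberg adjustment at 0.05. Other steps were run in Python 3.11.15 with scipy 1.17.1. On simulated data, the recovery of depth, the mean limma estimates and the interval of an RPM ratio were checked. The other intervals, counts as low as the lowest here and the error rate of limma with this few families were not. Members, lists and the rule for named families (all members, copper miRNAs, miR395, miR399 and miR827, and the 3 most alike families) were chosen with earlier results of these data known. miR827, another phosphate family, was not analysed here. Alternatives were other scalings, pseudocounts, arms, filters, thresholds, a model without the species block, and each species left out in turn. Each miR398 sequence on its own was added after seeing the data.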

Additional observations from a re-analysis of the deposited data

Results flagged for a closer look

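miR398 was lower in mature than in juvenile avocado leaves but higher in macadamia and mango. Its log2 ratio (mature to juvenile) in macadamia exceeded that in avocado by 4.17, and that in mango exceeded it by 3.77. For the osa-miR398b sequence alone these gaps were 4.34 and 3.44. Each gap compares single pairs of libraries and was not tested, and the mango ratio of miR398 turns to -0.40 when libraries are rescaled to their summed listed miRNAs.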

How the results depend on the processing

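For the log2 ratios within a species, 8 alternative values moved beyond counting error, while settings on arms could not move members with a single sequence or arm. All 8 concern miR398. Rescaling to the median family gave -1.71 in avocado and 1.60 in macadamia, and rescaling to the summed listed miRNAs gave -2.12, 1.52 and -0.40 in avocado, macadamia and mango. A pseudocount of 5 RPM gave -2.45 in avocado. miR398a on its own gave 0.24 in macadamia and 2.68 in mango. The values of miR408 stayed within counting intervals that are wide at its few reads. In macadamia they went from -0.09 to 0.44 (median family) and 0.33 (summed listed miRNAs). In mango they ran from -2.16 (summed listed miRNAs) to -0.75 (pseudocount of 5 RPM). Rescaled to the summed listed miRNAs, the RPM of miR398 became 37.6 (juvenile) and 7.85 (mature) in avocado, 61.9 and 179 in macadamia and 38.0 in mature mango, and miR408 was 19.2 RPM in mature macadamia.

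The shared log2 fold change of miR398 turned to 0.21 with rescaling to the median family (adjusted p = 0.89 from limma), and leaving out 1 species moved it between -1.21 (without macadamia) and 0.87 (without avocado). That of osa-miR398b ran from -1.38 (without macadamia) to 0.79 (without avocado). miR398 had no value with a filter of 50 RPM, which it did not pass in avocado. The number of families called went from 2 to 1 with either rescaling, with no filter and with no species block, to 3 with a filter of 50 RPM, and to 0 without any 1 species. Of sequences 3 were called, 2 with rescaling to the median sequence, 0 without macadamia and 4 without mango. No paired analysis by replicate was possible because there was 1 library per species and age, and the species block is the pairing of the 2 ages. A threshold of 4-fold left 6 changed families in avocado, 4 in macadamia and 6 in mango, and 1.5-fold gave 13 in macadamia, in place of 11, 8 and 11 at 2-fold. Rescaling to the summed listed miRNAs made 1 family higher and 8 lower in mango, in place of 5 and 6, and 4 and 4 in avocado, and 4 and 5 in macadamia, in place of 3 and 8, and 2 and 6. The planned count test on recovered reads was not run, since too few low values were at hand to check the reads, on which the intervals also rest. Depth limited miR408 and miR398a in mango most, where 3 reads are 2.63 RPM in the juvenile library.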
